A study of Mus musculus with 12 samples.

Results

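The XistΔm6A/11C comparison contrasts mESCs with and without 24 h of Dox in an iXist-ChrX line that lacks the m6A-modified region near the 5′ end of Xist. Its members were the libraries whose labels name the 11C deletion line, 4 of 12 in the series: NoDox1, NoDox2, Dox1 and Dox2, paired by replicate number into pair 1 and pair 2. All groups came from female interspecific cells (129/Sv and Cast/Ei), grown on mouse fibroblast feeders and pre-plated before RNA extraction, in which a TetOn promoter drives Xist from the 129 X chromosome and rtTA is expressed from the TIGRE locus. Dox was given at 1.0 to 1.5 µg/mL, and the uninduced libraries received none. XistΔm6A/11C carries in addition a CRISPR deletion on the inducible Xist. WT (1 pair, intact inducible Xist) and XistΔAprec (3 clones, C1, 2C2 and C11, without the A-repeat, 1 pair each) served for comparison. The labels name these clones only as XistDelA. The paper describes replicate lines of a precise A-repeat deletion, XistΔAprec, and also a larger deletion, XistΔA. Which deletion each clone carries is not stated, and the name XistΔAprec is used here for all 3. XistΔm6A/11C is 1 clone, so both pairs describe that clone. The paper calls the libraries biological replicas, and whether a shared number marks a shared culture is not stated.

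ChrRNA-seq measures RNA bound to chromatin, which is rich in unspliced transcripts. Read pairs on genes numbered 21551628 in NoDox1, 18893447 in NoDox2, 36007145 in Dox1 and 21079263 in Dox2, and levels are given as RPM, relative to this total. Read pairs that cover a sequence variant were assigned to a parental genome. The X that carries inducible Xist is called Xi and the other Xa, and Xi/(Xi+Xa) is given here as the Xi share in percent. In bulk RNA, fewer cells silencing a gene and less RNA per cell cannot be told apart.

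Xist is a long non-coding RNA that coats the chromosome it is made from, and X inactivation turns off most genes there. Its A-repeat, at the 5′ end, binds SPEN and RBM15 and is needed for silencing, while the m6A region lies just downstream of it. Tsix is transcribed antisense across Xist, and a few X-linked genes, the escapees, stay active on the silenced chromosome.

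The line was checked for markers of its cell type. Of 13 mESC markers 12 passed the filter on low counts and 0 were past the threshold of the edgeR test described below, which called 1.57% of all genes, so that 0 of 12 would be common for any list. Their summed level was 2027 RPM in NoDox1, 1778 in NoDox2, 2492 in Dox1 and 1824 in Dox2, with Esrrb the most abundant. Sox2 had 0 counts in all 4 libraries, where 3 counts would be 0.0833 to 0.159 RPM. It lies within Sox2ot on the same strand, where pairs that overlap 2 genes may go uncounted. The cause of the 0 counts was not tested. Feeder markers summed to 798, 913, 861 and 853 RPM in the same order, most of it Fn1. The defining fibroblast genes Col1a1, Col3a1, Dcn and Postn stayed under 1 RPM in each library and Lum had 0 counts. Differentiation markers summed to 615, 350, 665 and 300 RPM with Lef1 the most abundant, so replicate 1 was higher than replicate 2 with and without Dox.

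The stretch of Xist that follows the A-repeat is shown because the deletion of this line lies in that part of the RNA. In the GENCODE vM21 transcript Xist-201 (17946 nt, GRCm38), the A-repeat core ATCGGGG was found 3 times, at nt 360, 528 and 692. Only exact matches were searched for, so this is not a count of the repeat units. GGACT, a common form of the m6A consensus, occurred 15 times on the strand of the RNA. The first after the last ATCGGGG match started at nt 998. The 300 nt around it, nt 851 to 1150 (chrX:103482105-103482404, minus strand), are printed with each GGAC in capitals.
Xist-201, nt 851 to 1150: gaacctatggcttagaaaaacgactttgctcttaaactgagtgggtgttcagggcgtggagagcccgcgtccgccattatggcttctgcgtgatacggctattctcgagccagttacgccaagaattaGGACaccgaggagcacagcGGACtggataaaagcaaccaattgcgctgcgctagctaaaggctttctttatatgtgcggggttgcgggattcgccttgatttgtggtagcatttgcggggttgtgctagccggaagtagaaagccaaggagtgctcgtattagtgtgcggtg
GGAC was present here at nt 979 and nt 998, the latter within GGACT. Of 59 consecutive windows of 300 nt in Xist-201, 44.1% held GGAC and 20.3% GGACT. Among 32851 RefSeq promoters of 300 bases (GRCm38.p6), 65.6% held GGAC and 26.1% GGACT on the strand of the gene. The borders of the deletion were not located in the transcript here, so how much of the printed stretch the line lacks is not given.

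Xist itself measured 100.1 RPM in NoDox1, 85.6 in NoDox2, 3140 in Dox1 and 4576 in Dox2. Its fitted log2 change was 5.35 (SE 0.339, adjusted p 1.07e-51 by edgeR), higher in both pairs, at 4.97 and 5.74. Of the allelic Xist counts, 99.4% in NoDox1, 99.5% in NoDox2 and 99.9% in each Dox library came from the Xi genome. The difference from XistΔAprec in the same log2 change was 1.96 (adjusted p 0.00133 for the interaction), and the changes were 4.21 in WT and 3.64, 3.33 and 3.34 in C1, 2C2 and C11. The larger change here than in WT went with a lower level without Dox, since WT measured 297 RPM without and 5514 RPM with Dox.

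Tsix (chrX:103431516-103484957, plus strand) fell from 722 and 534 RPM without Dox to 349 and 305 RPM with Dox. All its Dox values were below all values without Dox, with a fitted log2 change of -0.93 (SE 0.200, adjusted p 0.000827). Its Xi share went from 51.7% and 48.8% to 19.2% in Dox1 and 31.6% in Dox2. The Xi to Xa ratio of Tsix thus had a fitted log2 change of -1.69 (SE 0.0601), also past the threshold without the replicate block (adjusted p 0.000612). The total change differed from that of the XistΔAprec clones by -0.67 (adjusted p 0.0345). The Xi share of Tsix fell in these clones as well. Its change in Xi/(Xi+Xa) was -0.15, -0.14 and -0.09 in C1, 2C2 and C11, against -0.32 and -0.17 in pair 1 and pair 2.

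To rank genes by silencing of the Xi copy, edgeR was fitted to the Xi and Xa counts of the 4 libraries, with a separate allele term for each pair, over 13710 genes that averaged 10 or more allelic counts. The fit called 1.33% of all genes lower and 0.131% higher with Dox at an adjusted p under 0.05. Of 908 X-linked genes in the files, 495 had enough allelic counts (without Xist) and 319 were informative, with a mean Xi share between 10 and 90% without Dox. Among these 319 genes 160 were called lower and 0 higher by edgeR. All but 2 of the 160, 158 genes, fell in both pairs, and of all 319 genes 261 fell in both, 6 rose in both and 51 moved in opposite directions. Another edgeR fit without the replicate block called 102 of the 160. Of the autosomal genes, 22 of 13213 were called lower and 16 higher, and their median fitted change was 0.00 on the log2 scale.

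The gene-by-gene order was taken from the 209 informative genes with at least 50 allelic counts in each library, of which 149 were called lower. Their fitted log2 change in the Xi to Xa ratio ran from -2.64 to 0.21, with a median of -0.86. The quartiles were -1.26 and -0.56. A change under -1 was seen for 82 genes and under -2 for 8, while 2 genes, Suv39h1 and Atp6ap1, lay above 0. The median Xi allele changed by -1.09 in pair 1 and -0.77 in pair 2 on the log2 scale, and the median Xa allele by -0.16 and -0.07. The fall was thus carried mostly by the Xi copy in both pairs.

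**Figure D1:**
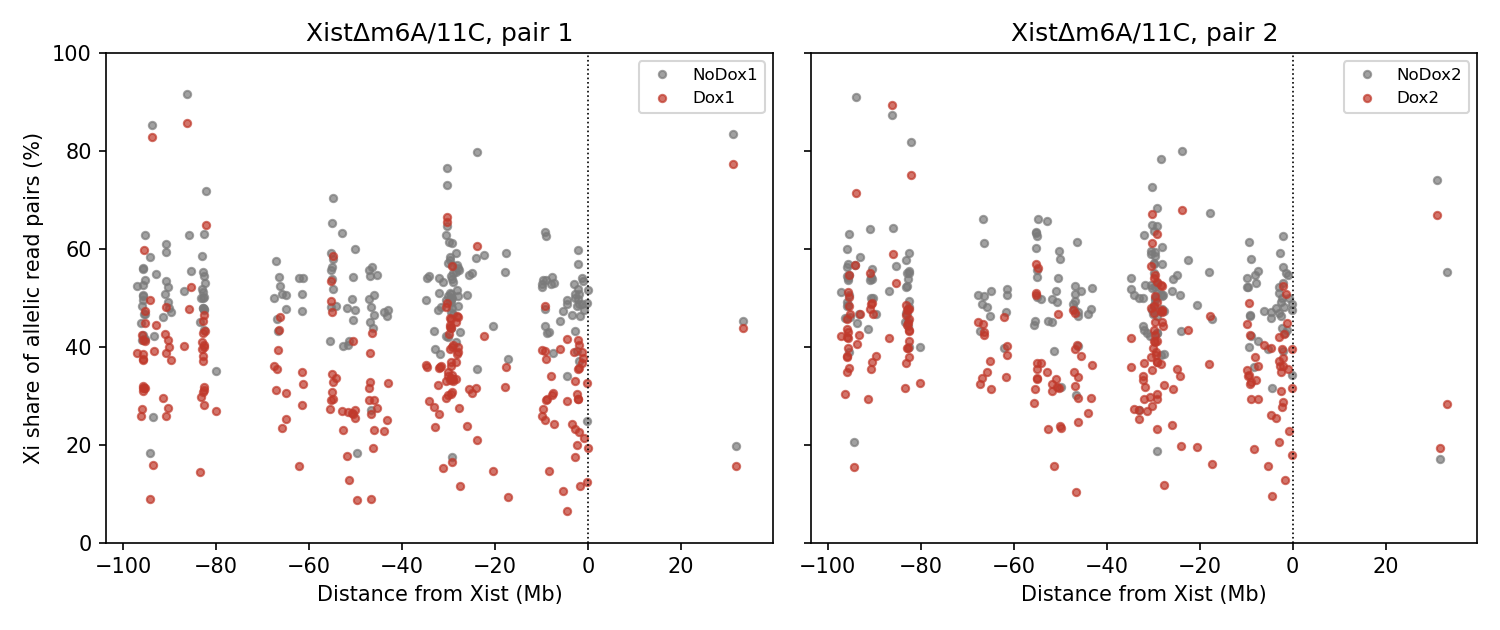
Xi share (percent of allelic read pairs) of the 209 informative genes with at least 50 allelic counts in each library, against distance of the gene's start from that of Xist in Mb, for pair 1 (left) and pair 2 (right), NoDox in grey and Dox in red, 1 point per gene and library. Dox points sit below NoDox points along the proximal X in both pairs, and few informative genes lie distal of Xist (right of the dotted line).

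The most silenced gene was Stard8, which encodes a START domain protein, 4.44 Mb proximal of Xist (chrX:99042580-99074728, GRCm38). Its Xi share was 34.0% (95% Wilson interval 31.2 to 36.9) in NoDox1 and 31.6% (27.9 to 35.6) in NoDox2, and 6.42% (5.18 to 7.95) in Dox1 and 9.48% (7.19 to 12.4) in Dox2. The intervals with Dox lay far below those without, and the fitted log2 change was -2.64 (SE 0.155). Such intervals cover counting error only, and over the single-library shares of the most and least silenced genes their half-widths ran from 1.00 to 12.5 percentage points. In total counts Stard8 measured 108 and 67.4 RPM without Dox and 73.0 and 51.0 with Dox, a log2 change of -0.49 that missed the threshold (adjusted p 0.0933).

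Nhsl2, a member of the Nance-Horan syndrome protein family 1.63 Mb from Xist, went from 46.4% and 42.8% to 11.6% and 12.7% (log2 change -2.58, SE 0.177). Pls3, which encodes an actin-bundling plastin, went from 43.1% and 38.4% to 11.6% and 11.8% (-2.43, SE 0.195). In each of these 2 genes the Dox libraries stood below both libraries without Dox by more than 20 points, and both were also lower in total counts, at -0.56 and -0.81 (adjusted p 0.0315 and 0.000246).

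Nr0b1 encodes DAX1, a nuclear receptor of the pluripotency network. Its Xi share fell from 37.5% and 45.7% to 9.28% and 16% (log2 change -2.37, SE 0.226), while its total level was 21.3 and 21.5 RPM without Dox and 23.1 and 16.7 RPM with Dox. The total levels overlapped, with a log2 change of -0.12 (adjusted p 0.999), although the Xi copy fell in both pairs. Dmd, the gene of dystrophin and one of the longest on the chromosome at 2256182 bp, went from 44.2% and 48.4% to 14.6% and 19.5% (-2.08, SE 0.0607). Gpc4, a cell surface heparan sulphate proteoglycan 51.3 Mb from Xist, went from 41.1% and 39.1% to 12.9% and 15.5% (-2.04, SE 0.120) with a total change of -0.25 (adjusted p 0.863).

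Firre is a non-coding RNA gene 52.8 Mb proximal of Xist (chrX:50555743-50635258). Its Xi share began above those of the other most silenced genes, at 63.2% and 65.8%, and ended at 27.0% in Dox1 and 34.8% in Dox2 (log2 change -2.06, SE 0.0481). It measured 772 and 636 RPM without Dox and 401 and 368 RPM with Dox, a total change of -0.87 (adjusted p 0.00366). Both scales thus showed the libraries apart with no overlap. Pdzd11, which encodes a PDZ domain protein, went from 43.2% and 52.2% to 17.4% and 20.5% (-1.95, SE 0.382) on 69 to 92 allelic counts a library. Fam122b went from 60.1% and 59.6% to 25.5% and 31.6% (-1.92, SE 0.147). All 10 most silenced genes, 9 of them described here, were past the threshold without the replicate block too, with adjusted p from 1.9e-06 to 0.0252.

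The 10 most silenced genes, taken from 147 that were called and lower in both pairs, had a median Xi share of 43.7% and 44.3% without Dox and 12.2% in Dox1 and 15.9% in Dox2. Their Xa allele changed by a median of -0.01 and their Xi allele by -2.18 on the log2 scale. In total counts 6 of the 10 were past the threshold, with a median total change of -0.67, against 53 of the 209 well covered genes (-0.45) and 0 of the 10 least silenced (-0.24). They lay 1.63 to 52.8 Mb from Xist, all of them proximal.

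At the other end, Suv39h1, which encodes a histone H3 lysine 9 methyltransferase (chrX:8061170-8074760), had a fitted allelic change of 0.21 (SE 0.369, adjusted p 0.999). Its Xi share was 46.8% (34.9 to 59.0) in NoDox1, 63.0% (49.6 to 74.6) in NoDox2, 59.7% (50.9 to 67.9) in Dox1 and 54.7% (43.4 to 65.4) in Dox2. The intervals overlapped, and the share rose in pair 1 and fell in pair 2. It was covered by 54 to 124 allelic counts a library, fewer than most of the 20 genes. In total counts Suv39h1 was level, at 18.6, 18.4, 19.5 and 18.4 RPM in NoDox1, NoDox2, Dox1 and Dox2.

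Atp6ap1, an accessory subunit of the vacuolar proton pump, held Xi shares of 17.6% and 18.7% without Dox and 16.5% and 23.2% with Dox (log2 change 0.06). Pramel3, of the PRAME-like family, held 19.7% and 17.1%, then 15.7% and 19.3% (-0.06). The shares of both genes overlapped between the groups. Pramel3 lies 31.8 Mb distal of Xist, where nearly no gene was informative, and its share rests on 51 to 76 allelic counts a library. Its total level fell from 4.45 and 6.19 RPM to 2.42 and 3.84 RPM (-0.79, adjusted p 0.117), with both alleles lower in each pair, so a level share here is not a level expression. Renbp, the renin-binding protein, held 47.2% and 52.2%, then 45.7% and 50.4% (-0.09). Ftsj1, a tRNA methyltransferase, held 46.8% and 46.0%, then 41.2% and 46.7% (-0.18). Efhc2 held 91.6% and 87.4%, then 85.8% and 89.3% (-0.19), the highest Xi shares of the 20 genes. None of these 5 genes was called by edgeR.

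Taf1, which encodes the largest subunit of TFIID, lies 1.95 Mb from Xist, close to Nhsl2, and was deeply covered. Its Xi share was 37.2% (34.5 to 39.9) in NoDox1, 39.2% (36.6 to 41.9) in NoDox2, 35.6% (33.5 to 37.8) in Dox1 and 37.7% (35.4 to 40.1) in Dox2, a log2 change of -0.09 (SE 0.0864, adjusted p 0.944). Idh3g, a subunit of mitochondrial isocitrate dehydrogenase, held 49.3% and 48.5%, then 46.0% and 48.3% (-0.12, SE 0.0834). These well covered genes stayed within 4 points of their uninduced share in each pair. Dkc1, which encodes dyskerin, held 41.0% and 38.4%, then 36.9% and 36.6% (-0.20, SE 0.113).

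Kdm6a, an H3K27 demethylase gene known to escape X inactivation, was the only one of the 10 least silenced genes that was called. Its Xi share went from 55.4% (54.1 to 56.7) and 56.4% (55.1 to 57.7) to 52.2% (51.1 to 53.3) and 53.0% (51.8 to 54.2), a log2 change of -0.19 (SE 0.0468, adjusted p 0.00428). The intervals did not overlap within either pair, and the fall was about 3 points. Without the replicate block its adjusted p was 0.96, and without replicate 2 the change of -0.18 had an adjusted p of 0.0510. Without replicate 1 the direction of Suv39h1, Pramel3, Ftsj1 and Efhc2 reversed, to -0.49, 0.21, 0.04 and 0.28, and without replicate 2 that of Atp6ap1, to -0.11. The order within the least silenced genes therefore differed between the pairs.

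**Figure D2:**
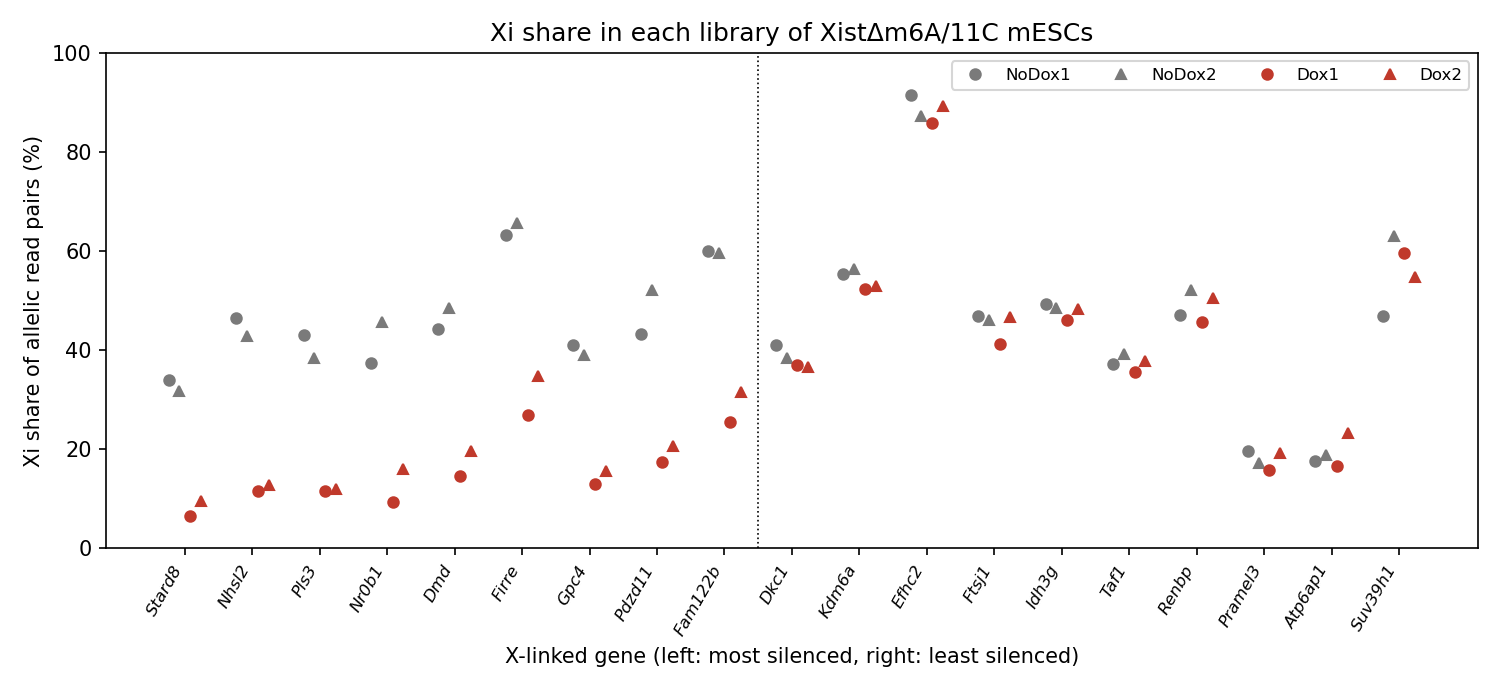
Xi share (percent of allelic read pairs) in NoDox1, NoDox2 (grey), Dox1 and Dox2 (red) for 9 of the 10 most silenced (left of the dotted line) and the 10 least silenced (right) informative genes, 1 point per library. In the left block every red point sits below every grey point of its gene, while in the right block the colours mix for most genes and the medians stay at 46.8%, 47.2%, 43.5% and 47.5%.

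Features that the ranking did not use were compared as a description, since genes that share a chromosome and libraries are not independent replicates. The most silenced genes were long, with a median of 84.5 kb against 13.7 kb for the least silenced and 33.4 kb for all 209, and 2 of the former and 7 of the latter were shorter than 20 kb. Across the 209 genes the Spearman correlation of the allelic change was -0.34 with gene length, 0.32 with RPM per kb without Dox and 0.27 with distance from Xist. Longer, more lowly transcribed and nearer genes thus tended to larger falls, with wide scatter. A longer gene also collects more allelic counts, which the measures share. Genes within 25 Mb of Xist had a median change of -1.20 with 43 of 50 called, those at 25 to 50 Mb -0.85 (47 of 71), at 50 to 75 Mb -1.04 (25 of 34) and beyond 75 Mb -0.60 (34 of 54). The fall was not steady with distance, since the third band, which holds Firre and Gpc4, fell by more than the one before it.

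The promoters of the genes at both ends are printed because CG-rich promoters are common among widely expressed genes, and each CG is in capitals (RefSeq, GRCm38.p6, 250 bases before to 50 after the start). Stard8 lies at chrX:99042331-99042630 on the plus strand and Suv39h1 at chrX:8074711-8075010 on the minus strand.
Stard8: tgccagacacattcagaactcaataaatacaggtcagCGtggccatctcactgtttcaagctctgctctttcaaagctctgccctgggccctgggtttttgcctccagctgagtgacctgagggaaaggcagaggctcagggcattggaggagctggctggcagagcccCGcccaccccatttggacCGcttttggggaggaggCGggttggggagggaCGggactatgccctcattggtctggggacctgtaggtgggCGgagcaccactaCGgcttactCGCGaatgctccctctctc
Suv39h1: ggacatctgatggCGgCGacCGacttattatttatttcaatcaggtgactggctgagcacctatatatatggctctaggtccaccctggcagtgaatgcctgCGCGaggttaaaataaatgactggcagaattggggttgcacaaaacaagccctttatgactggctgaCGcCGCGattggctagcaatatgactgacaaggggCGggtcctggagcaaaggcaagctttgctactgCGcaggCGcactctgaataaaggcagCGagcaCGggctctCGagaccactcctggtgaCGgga
The Stard8 promoter held 9 CG and that of Suv39h1 15. A promoter was matched for 8 of the 10 most silenced genes, with a median of 13 CG and a range of 2 (Dmd) to 28 (Pdzd11). For the 10 least silenced genes the median was 15.5, from 4 (Efhc2) to 27 (Idh3g). The ranges overlapped widely, and the median was 16 over 171 of the 209 genes and 14 over all 16598 genes matched. Over all 32851 promoters, matched or not, the median was 7. At least 1 CG, which reads the same on both strands, was present in 94.6% of all promoters.

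Total counts cover the whole X, also where the parental genomes cannot be told apart. The edgeR fit of all read pairs with the replicate block called 237 of 15140 genes, 1.57% of those tested, with 1.34% lower and 0.225% higher with Dox. Of 574 X-linked genes (without Xist) 145 were called lower and 0 higher, and all 145 fell in both pairs. Their median change was -0.52 over all 574, against -0.00 for 14564 autosomal genes, and 516 of the 574 fell in both pairs. Without the replicate block edgeR called 0 of all genes, with 173 at an unadjusted p under 0.05 and a lowest adjusted p of 0.0546. DESeq2 with the block called 85 genes and without it 3, Xist, Rapgef4 and Duox1, which were named after their values were seen.

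The lowest X-linked genes in total counts were mostly ones that the allelic fit could not reach. Lpar4, a lysophosphatidic acid receptor 3.44 Mb distal of Xist, fell from 16 and 6.99 RPM to 5.53 and 2.47 RPM (log2 change -1.53, SE 0.239, adjusted p 1.43e-07), with -1.53 in pair 1 and -1.49 in pair 2. The replicates differed in level, so that Dox1 lay near NoDox2, and the fall showed within each pair.

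Irs4, an insulin receptor substrate, fell from 3.02 and 2.28 RPM to 1.28 and 0.712 RPM (-1.42), and Usp51, a histone deubiquitinase, from 4.18 and 4.39 to 1.83 and 1.38 RPM (-1.41). The armadillo repeat genes Armcx1 and Armcx3, which stand side by side 31.2 and 31.3 Mb distal of Xist, changed by -1.34 and -1.32. Car5b, a mitochondrial carbonic anhydrase gene listed among the escapees, fell from 3.02 and 3.33 RPM to 1.33 and 1.19 RPM (-1.33, adjusted p 0.00318). Irs4, Usp51 and Car5b had every Dox value below every value without Dox. C230004F18Rik (-1.79, adjusted p 0.0460) had the largest fall on a mean of only 11.5 counts, and Gm1720 (-1.30) and Gm9 (-1.29) were sparse too. Without replicate 1, C230004F18Rik (-1.93), Armcx3 (-1.01) and Gm1720 (-0.67) missed the threshold, as did Gm9 without replicate 2 (-0.81).

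Of the 10 lowest genes, 9 of them described here, 8 lie distal of Xist. There, 173 of the 176 X-linked genes with allelic counts but no informative share were found, such as Rlim, whose Xi share was under 1% in each library. In total counts 73 of 220 distal genes were called lower, with a median of -0.60, and 72 of 354 proximal genes, with a median of -0.48. Total levels were thus lower on the distal X too, where 13 genes were informative.

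At the upper end of the total changes, among genes that averaged 100 counts or more, Xist was the highest, followed by L1cam, a neural adhesion molecule, at 3.67 and 3.49 RPM without Dox and 7.11 and 5.08 RPM with Dox (log2 change 0.75, SE 0.257, adjusted p 0.129). Both Dox values of L1cam lay above both others, and without replicate 2 its change of 0.88 was past the threshold (adjusted p 0.00511). Rbm3, an RNA-binding protein induced by cold, was at 122, 137, 132 and 141 RPM in NoDox1, NoDox2, Dox1 and Dox2 (0.07). With Rbm3, L1cam, Rbm3os, Sash3 and Bgn made up the 5 genes besides Xist that were higher in both pairs, named after their values were seen, and none of the 5 was called.

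A level total did not mean a level Xi share. Hcfc1, a host cell factor that binds chromatin regulators, measured 222 and 263 RPM without Dox and 241 and 260 RPM with Dox, a change of 0.05. Its Xi share nevertheless fell from 49.7% and 49.6% to 33.7% in Dox1 and 40.9% in Dox2 (log2 change -0.74, SE 0.0893). Araf, a RAF kinase, had a total change of -0.01 and an Xi share that fell from 54.5% and 53.8% to 46.5% and 45% (-0.48, adjusted p 0.0297, and 0.406 without the replicate block). Suv39h1 (0.03), Nxf7 (0.03), Gm14634 (-0.02), Timm17b (-0.04) and Ssr4 (-0.04) completed the 10. Their direction, and that of Araf, depended on the pair: without replicate 1 Araf (0.0135) and Gm14634 (0.25) reversed, and without replicate 2 Suv39h1 (-0.00945), Nxf7 (-0.36), Timm17b (0.38) and Ssr4 (0.0557). Across the 209 genes, the Spearman correlation of the allelic and the total change was 0.51, and both come from the same libraries.

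Groups of X-linked genes were then read from lists. Of 9 tested genes of the X inactivation centre, Xist rose and 5 were called lower, against 145 of 574 X-linked genes. Rlim, whose ubiquitin ligase activates Xist, fell from 625 and 628 RPM to 233 and 321 RPM (log2 change -1.20, adjusted p 2.16e-06). Its 2 values without Dox were nearly equal and both Dox values lay far below. Tsix was given above, and Tsx (-1.03) and Nap1l2 (-0.69) were called with both replicates but not without replicate 1 (-0.81 and -0.35). Ftx (-0.54, adjusted p 0.0637) and Jpx (-0.59, adjusted p 0.576), non-coding RNA genes that promote Xist, missed the threshold.

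Of 12 listed escapees, all tested, 1 was called lower in total counts (Car5b), against 145 of 574 X-linked genes, and the list's median was -0.31, the same as that of the chromatin regulators below. Kdm6a and 3 others were informative, and 3 of the 4 were called lower in the Xi to Xa ratio. Over all informative genes 160 of 319 were called lower, and of the 209 well covered ones 149. Ddx3x, an RNA helicase, went from 47.9% and 49.9% to 39.9% in Dox1 and 46.7% in Dox2 (log2 change -0.31, adjusted p 0.00508), and Utp14a, a ribosome biogenesis factor, from 59.1% and 63.3% to 53.5% and 57.0% (-0.35, adjusted p 0.000865). Eif2s3x, a subunit of translation factor eIF2, went from 44.1% and 39.9% to 39.1% and 34.2% (-0.32, adjusted p 0.487). Every one of the 4 shares fell in both pairs, by less than the median informative gene. Ddx3x (-0.18) and Utp14a (-0.38) missed the threshold without replicate 1, and both missed it without the replicate block.

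Of 24 tested X-linked regulators of chromatin and transcription 0 were called in total counts by edgeR with the block, against 145 of 574 X-linked genes, and their median was -0.31. In the Xi to Xa ratio 14 of 16 informative genes were called lower, all but Suv39h1 and Taf1. Over all informative genes 160 of 319 were called lower, and of the 209 well covered ones 149, so calls were more frequent with more allelic counts. Zmym3, a zinc finger protein of histone deacetylase complexes, fell from 56.9% and 56.3% to 29.3% and 28.7% (-1.67), and Med12, of the Mediator kinase module, from 49.7% and 43.8% to 29.3% and 27.6% (-1.17, adjusted p 0.0579 without the replicate block). Ogt, the O-GlcNAc transferase, fell from 48.7% and 48.1% to 40.4% and 42.6% (-0.42). The Dox shares of these 3 genes lay below their shares without Dox in every library.

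Of 18 tested X-linked metabolic genes 5 were called lower in total counts, a share near that of all X-linked genes (145 of 574). Pgk1, a glycolytic kinase, measured 239 and 82.4 RPM without Dox and 132 and 40.9 RPM with Dox (log2 change -0.93, adjusted p 1.07e-05), so replicate 2 was lower throughout and each pair fell. Gyk, glycerol kinase, fell from 155 and 178 to 83.4 and 116 RPM (-0.76) with an Xi share that went from 59.2% and 67.3% to 36.0% and 46.3%. The spermidine acetyltransferase gene Sat1 (-0.83), the lipid gene Acsl4 (-0.63) and the nucleotide synthesis gene Prps2 (-0.59) were the others. Among the 7 informative metabolic genes 5 were called lower (160 of 319 over all informative genes, 149 of 209 well covered ones), and Idh3g and Maob were not.

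Signalling genes gave 3 called lower of 15 tested, again near the 145 of 574 of all X-linked genes. Rlim was among them, and Amer1, a regulator of Wnt signalling, fell from 81.5 and 71.3 to 50.2 and 44.6 RPM (-0.69, adjusted p 0.00256). Gpc3, the neighbour of Gpc4, was among the most abundant X-linked genes, at 2355 and 2448 RPM without Dox and 1482 and 1649 RPM with Dox. Its groups did not overlap, with a total change of -0.62 (adjusted p 0.454), and its Xi share went from 49.7% and 51.4% to 26.5% and 33.3% (-1.27, SE 0.0336). Of 12 informative signalling genes 10 were called lower (160 of 319 over all, 149 of 209 well covered ones), all but Porcn and Irak1. Dusp9, a phosphatase of ERK, fell from 68.4% and 55.7% to 34.8% and 31.6% (-1.72, adjusted p 0.0212) and was not called without replicate 1 (-1.44) or without replicate 2 (-2.01), nor without the replicate block.

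**Figure D3:**
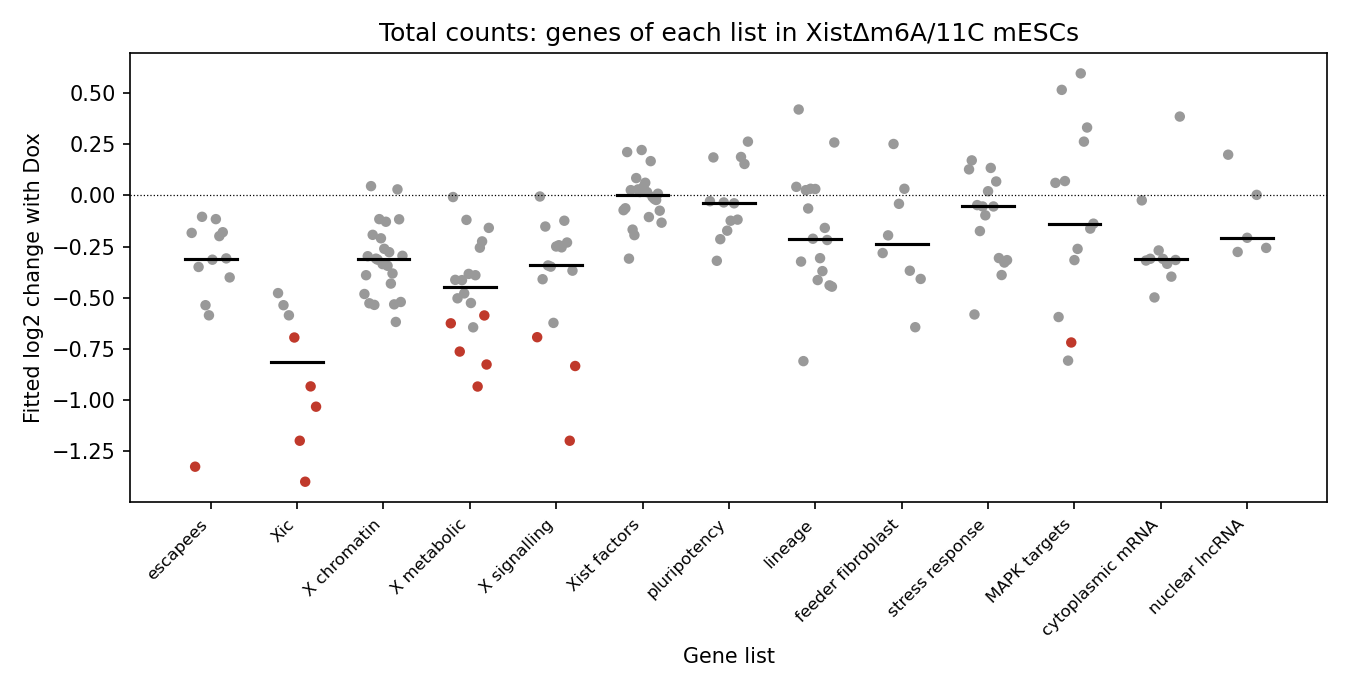
Fitted log2 change in total counts (Dox against no Dox) of each tested gene in 13 lists, Xist left out, with genes at an adjusted p under 0.05 in red, others in grey and the median of each list as a black bar. The medians of the X-linked lists lie below 0, as do those of the other lists except the factors that act with Xist (0.00). Called genes are found almost only in the X-linked lists.

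On the autosomes 91 of 14564 tested genes were called, 58 lower and 33 higher, and 55 and 32 of them moved the same way in both pairs. Rapgef4 (chr2:71981214-72257474), which encodes a guanine nucleotide exchange factor for Rap activated by cAMP, measured 19.9 and 22.2 RPM without Dox and 228 and 161 RPM with Dox. The Dox values were far above the others in both pairs, and the log2 change was 3.19 (SE 0.179, adjusted p 3.55e-66). It rose as well in WT (2.49) and in C1, 2C2 and C11 (3.11, 3.27 and 3.08), and the difference from XistΔAprec was 0.08 (adjusted p 0.881).

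Duox1, an NADPH oxidase that makes hydrogen peroxide, rose from 1.02 and 1.11 RPM to 8.50 and 4.84 RPM (log2 change 2.61, SE 0.308, adjusted p 7.69e-14). It changed by 3.77 in WT and by 2.97, 3.62 and 3.46 in the clones. Cdh3, P-cadherin, rose from 48.5 and 37.0 to 168 and 60.4 RPM (1.25, adjusted p 6.66e-11), by 1.19 in WT and by 1.38, 1.35 and 1.17 in the clones. Rapgef4, Duox1 and Cdh3 were thus higher with Dox in all 6 pairs of the series, as were Il9r, Chrnb1, Taco1 and Osbp2. For Il9r, pair 2 rested on only 2 counts without and 4 with Dox, and Taco1 rose by only 0.03 in C11. The interaction values of Rapgef4, Duox1 and Cdh3 were 0.08, -0.72 and 0.01 (adjusted p 0.881, 0.435 and 0.994). The share of Cdh3 counts from the genome of the Xi fell with it, from 59.9% in both libraries without Dox to 52.8% and 53.9% (-0.40, adjusted p 0.00836, and 0.323 without the replicate block).

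Taco1, a translational activator of mitochondrial COX1, rose from 20.9 and 15.3 RPM to 55.4 and 27.8 RPM (log2 change 1.14, adjusted p 1.1e-07), against 0.20 in WT and 0.36, 0.61 and 0.03 in the clones (interaction 0.85, adjusted p 0.0679). Chrnb1, an acetylcholine receptor subunit, rose from 1.16 and 2.12 to 2.56 and 5.27 RPM (1.24), and Osbp2, an oxysterol-binding protein, from 4.22 and 3.55 to 8.91 and 6.36 RPM (0.96). In these 3 genes both Dox values were above both others. Il9r, an interleukin receptor, had a change of 1.71 on less than 3 RPM in each library and was not called without replicate 1 (0.88). Filip1l measured 32.5, 42.8 and 45.6 RPM in NoDox1, NoDox2 and Dox1 and 542 RPM in Dox2, so its change of 2.10 came almost wholly from 1 library, and without replicate 2 it was 0.41 (adjusted p 0.371).

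Some autosomal genes differed from XistΔAprec by the test of that difference, which called 119 of 16254 genes, 0.732% of those tested. The count was 41 without clone C11 and 0 without a term for each pair. Atp2a3, a calcium pump of the endoplasmic reticulum, rose from 5.89 and 8.79 RPM to 15.0 and 13.3 RPM (log2 change 0.97, adjusted p 0.00114). The difference was 1.18 (adjusted p 0.0425). Atp2a3 changed by 0.50 in WT and by -0.15, -0.62 and 0.22 in C1, 2C2 and C11, so the clones did not move the same way. Tiam2, an activator of Rac, rose from 7.52 to 15.7 RPM in pair 1 and from 15.4 to 25.9 RPM in pair 2 (0.90), against -0.03, -0.12 and -0.28 in the clones, a difference of 1.08 (adjusted p 0.00736). NoDox2 and Dox1 of Tiam2 were alike, and the rise showed within pairs.

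Besides these 2, the autosomal genes past both thresholds were 5730408K05Rik, Ncapd2, Tmem63c, Igsf21, Nrg3 and Foxp2, chosen after their values were seen. Ncapd2, a subunit of condensin I, rose from 374 and 352 RPM to 705 and 542 RPM (0.76, adjusted p 0.0153) with a difference of 0.91 (adjusted p 0.00357), and 5730408K05Rik from 23.4 and 19.2 to 43.2 and 36.1 RPM (0.89) with a difference of 1.19 (adjusted p 0.00201). Tmem63c and Igsf21 rose by 0.78 and 0.85, and their groups did not overlap. Nrg3, a neuregulin, and Foxp2, a forkhead transcription factor, changed by -0.83 and -0.64. The WT pair has no replicate, so its difference from this line was not tested.

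The largest autosomal falls were in sparsely counted genes. Cplx2, a complexin of synaptic vesicle release, went from 0.789 and 0.476 RPM to 0.167 and 0.142 RPM (log2 change -2.06, SE 0.594, adjusted p 0.0378), and 4930570G19Rik from 1.25 and 0.635 to 0.305 and 0.190 RPM (-1.96). Rad51ap2 went from 1.53 and 1.59 to 0.694 and 0.285 RPM (-1.62), and Cib3, a calcium-binding protein, changed by -1.43. Of these 4, Rad51ap2 kept its call when either replicate was left out, while Cplx2 (-1.64) and 4930570G19Rik (-1.65) lost it without replicate 1 and Cib3 (-1.10) without replicate 2. Hist1h2aa, an H2A histone gene, was better covered, at 15.5 and 9.79 RPM without Dox and 5.86 and 4.22 RPM with Dox (-1.33, adjusted p 3.98e-06), with -2.13 in WT and -1.88, -0.37 and -1.36 in the clones. Both its Dox values lay below both others.

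Clca3 (-1.26), Sphkap (-1.24), Eqtn (-1.19), Ankrd55 (-1.15) and Hopx (-1.14) completed the lower 10, all under 6 RPM. Ankrd55, an ankyrin repeat gene, was at 3.39 and 3.44 RPM without Dox and 1.61 and 1.47 RPM with Dox, and Hopx, a homeodomain-only protein, at 3.02, 2.38, 1.78 and 0.712 RPM in NoDox1, NoDox2, Dox1 and Dox2. The Dox values of both genes lay below their values without Dox. Sphkap (-0.96) and Eqtn (-0.88) were not called without replicate 1. For none of the lower 10 was the difference from XistΔAprec past the threshold.

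**Figure D4:**
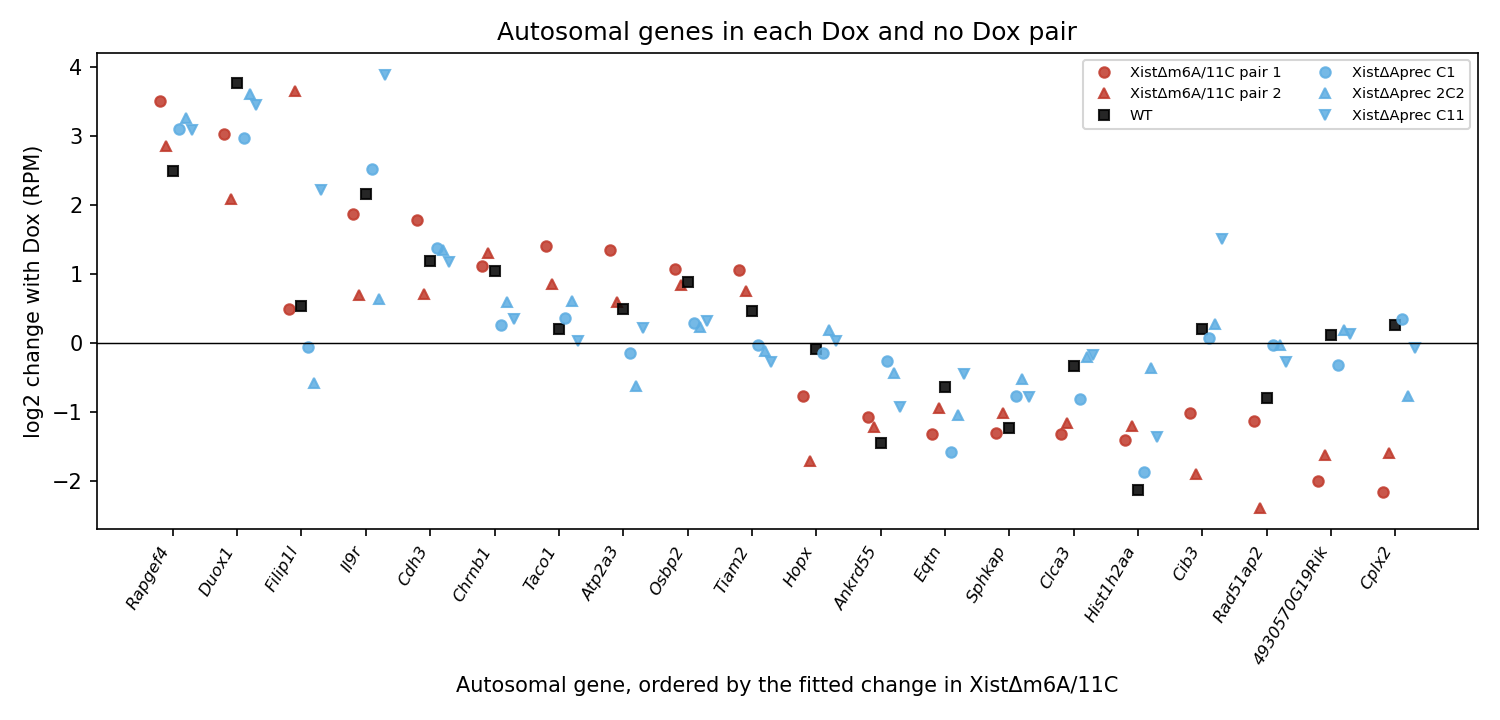
Log2 change with Dox (RPM with a pseudocount of 0.5 counts) of the 10 higher and 10 lower autosomal genes in each Dox and no Dox pair, XistΔm6A/11C in red, WT in black and the XistΔAprec clones in blue, 1 point per pair. Rapgef4, Duox1, Il9r, Cdh3, Chrnb1, Taco1 and Osbp2 lie above 0 in every pair, Tiam2 only in the red and black points, and Filip1l is high in pair 2 and C11.

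Over all 32 genes higher in both pairs, 29 also rose in WT and 22 in all 3 clones, and of the 55 lower genes 42 fell in WT and 37 in all clones. For the 14564 tested autosomal genes the same counts were 8934 and 5405. The difference from XistΔAprec was past the threshold for 6 of the 32 and 2 of the 55, against 58 of the 14564 tested. The higher genes were long, with a median of 85.6 kb against 24.2 kb for those tested, and the lower ones 20.2 kb. On chromosome 11 were 7 of the 32 higher and 6 of the 55 lower genes, with 1213 of the 14564 tested, and the genome of the Xi supplied 68.8% of the allelic counts of that chromosome in NoDox1 and NoDox2, 68.7% in Dox1 and 69.0% in Dox2. The share for all autosomes was 51.2%, 50.8%, 51.1% and 51.1%.

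Mature cytoplasmic messengers were read from a list of 10 genes, whose summed level was lowest in Dox2. Of these genes 0 were called by edgeR (1.57% over all genes). They summed to 2364, 2442 and 2499 RPM in NoDox1, NoDox2 and Dox1 and to 1545 RPM in Dox2. The list's median change was 0.14 in pair 1 and -0.68 in pair 2, with 9 of 10 genes lower in the latter and Eef1a1 the most abundant. Rpl10a (-0.67), Dppa5a (-0.64) and Tpi1 (-0.59) were called lower on the strength of pair 2 alone, and their pair 1 changes were 0.07, 0.08 and 0.09. With D130009I18Rik they were the 4 autosomal calls with opposite pairs. Other lists were also lower in pair 2: feeder markers had a median of -0.68 there (7 of 8 lower) and 0.06 in pair 1, differentiation markers -0.37 (14 of 17) and -0.04, and stress-response genes -0.27 (13 of 15) and 0.16. The summed level of the stress-response genes rose in pair 2 all the same, from 728 to 834 RPM, with Asns from 417 to 577 RPM. The part of these RNAs in the result was not tested.

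**Figure D5:**
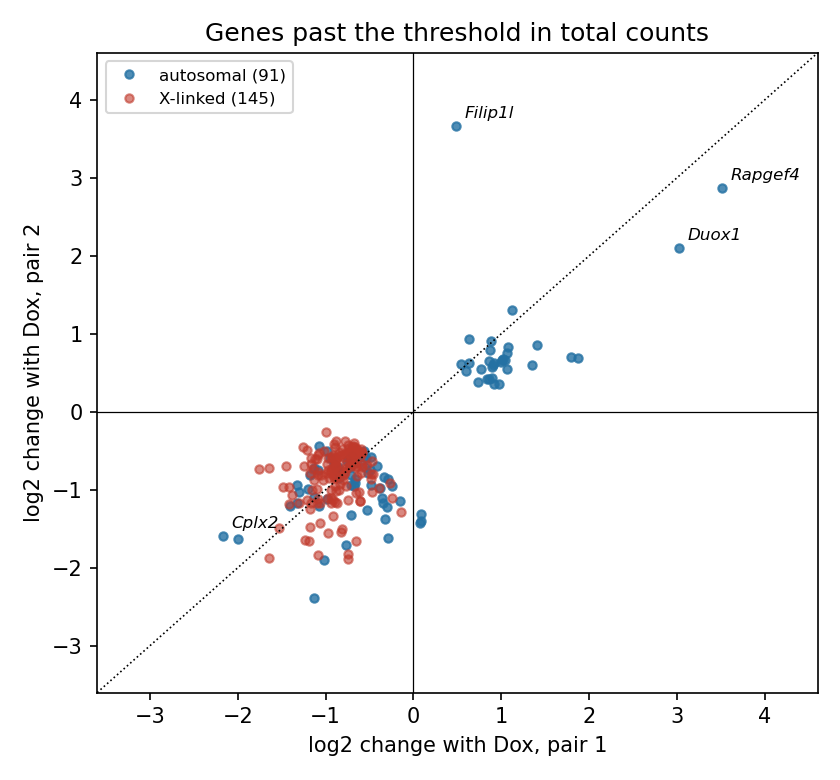
Log2 change with Dox in pair 1 against pair 2 for the genes called in total counts, 145 X-linked in red and 91 autosomal in blue, Xist and D130009I18Rik outside the frame or left out, with the line of equal change dotted. X-linked genes sit in the lower left quadrant, and Filip1l stands off the line through a large change in pair 2 only.

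Other lists held 0 or 1 called gene by the same edgeR fit, which a share of 1.57% over all genes would also give for lists of this size. Factors that act with Xist, including Spen, Rbm15 and the m6A writer complex, had 0 of 22 called and a median of 0.00. None (0) of 15 stress-response genes, of 17 differentiation markers, of 8 tested feeder markers or of 5 nuclear non-coding RNAs was called, with list medians of -0.05, -0.21, -0.24 and -0.21. Among 13 targets of MAPK signalling (median -0.14) 1 was called, the immediate early gene Ier2, at 13.4 and 13.7 RPM without Dox and 10.5 and 6.36 RPM with Dox (-0.72, adjusted p 0.0436), and it was not called without replicate 2 (-0.44). Malat1 made up most of the nuclear non-coding RNA, at 12500 and 10119 RPM without Dox and 9406 and 10147 RPM with Dox, and its groups overlapped.

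The change in Xi share differed in size between the pairs. The median Xi share of the informative genes was 50% in both libraries without Dox, and 32.6% in Dox1 against 38.0% in Dox2. Of the 209 well covered genes 157 fell by more in pair 1, and 198 fell in both pairs. The Spearman correlation between the pair 1 and pair 2 changes of the Xi share was 0.64 over these genes, which are not independent replicates. In total counts the X-linked median relative to the autosomal one was -0.62 in pair 1 and -0.39 in pair 2 over 472 genes. Xist had the opposite order, with the larger rise in pair 2.

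Against XistΔAprec, the interaction test called 60 X-linked genes lower, with Xist the only one higher, and 30 autosomal genes lower and 28 higher. The median difference was -0.40 over X-linked and -0.00 over autosomal genes. Of the genes named above, Lpar4 (-1.08, adjusted p 0.00568), Fam122b (-0.88, adjusted p 0.0183), Firre (-0.78, adjusted p 0.0247), Nhsl2 (-0.77, adjusted p 0.0404), Gpc3 (-0.73, adjusted p 0.0256), Pls3 (-0.65, adjusted p 0.0352) and Amer1 (-0.64, adjusted p 0.0256) fell by more in XistΔm6A/11C. Rlim had a difference of -0.52 that missed the threshold (adjusted p 0.183), and the differences of Kdm6a, Suv39h1 and Idh3g were -0.00, -0.01 and -0.02. Without a term for each pair edgeR called 0 genes in this test, which compares total counts and not allelic shares.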

How the data were processed

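ChrRNA-seq counts of the 4 XistΔm6A/11C libraries were used, with the 8 other libraries for comparison. The values are counts as deposited by the authors: read pairs per mm10 gene, introns included, from featureCounts (1.5.2), not normalized, in total and by parental genome. The tool that assigned read pairs to a genome is not stated. Genes were tested in R 4.3.3 with edgeR 4.0.16 quasi-likelihood fits (TMM, filterByExpr with a minimum count of 10) with the replicate number as a replicate block, on totals, on Xi and Xa counts, and for the difference from XistΔAprec in 1 fit of all 12 libraries with a term for each pair. Benjamini-Hochberg adjustment was over all genes tested, with a threshold of 0.05. Python 3.11.15, pandas 2.3.3, scipy 1.17.1 and matplotlib 3.10.9 gave the other values. Deviations of libraries with the same number correlated at 0.739 over 15140 genes.

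Named genes were the 10 most and 10 least silenced by allelic change (at least 50 allelic counts in each library, the former called and lower in both pairs), the 10 lowest and 10 highest X-linked genes in total counts, up to 10 autosomal genes in each direction that were called and moved the same way in both pairs, Xist, Tsix, and listed genes. The members and lists were chosen with earlier results of these data known. Alternatives were no replicate block, DESeq2 1.42.0, RLE size factors, TMM over autosomal genes, other filters and pseudocounts, all 12 libraries in 1 fit, and leaving out a replicate or clone C11. DESeq2 without the replicate block was added after seeing the data.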

Additional observations from a re-analysis of the deposited data

Results flagged for a closer look

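A test of the difference in Dox change between XistΔm6A/11C and XistΔAprec (edgeR, total counts) called 119 genes, 41 without clone C11 and 0 without the replicate block. Among the genes named in the text, Xist rose by more in XistΔm6A/11C, with a difference of 1.96 on the log2 scale in the change, not in the level with Dox. X-linked genes with a lower change in this line were Lpar4 (-1.08), Fam122b (-0.88), Firre (-0.78), Nhsl2 (-0.77), Gpc3 (-0.73), Tsix (-0.67), Pls3 (-0.65) and Amer1 (-0.64). Autosomal genes with a higher change were 5730408K05Rik (1.19), Atp2a3 (1.18), Tiam2 (1.08), Ncapd2 (0.91), Tmem63c (0.84) and Igsf21 (0.82), and those with a lower change were Nrg3 (-1.02) and Foxp2 (-0.73). XistΔm6A/11C is 1 clone with 2 pairs and XistΔAprec 3 clones with 1 pair each, so clone and deletion cannot be told apart in this line.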

How the results depend on the processing

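For genes changed in total counts (237), dropping the replicate block gave 0 in edgeR (173 at an unadjusted p under 0.05) and 3 in DESeq2, the latter chosen after seeing the data. DESeq2 with the replicate block gave 85, of which 80 were shared, and all 12 libraries in 1 fit gave 539, of which 228 were shared. Fits without replicate 1 or 2, in which the lone pair is assumed to vary like the other groups, gave 1308 to 2422. RLE factors, autosomal TMM and no filter gave 191 to 217.

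X-linked genes called lower (145) numbered 0 without the block in edgeR and 0 in DESeq2, 58 in DESeq2 with the block, 252 with all 12 libraries, and 205 to 391 without a replicate. Autosomal genes called (91) numbered 0, 2, 26, 285 and 1102 to 2029 under the same settings. Xist rose under every alternative, by 5.40 without the block (adjusted p 0.0546, past the threshold elsewhere) and by 4.89 to 5.81 without a replicate.

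Genes with a changed allelic ratio (200) numbered 106 without the block, all shared, and 128 to 181 without a replicate. Informative X-linked genes called lower (160) numbered 102 without the block and 91 to 145 without a replicate. The median change in Xi/(Xi+Xa), -0.139, was -0.0624 over all X-linked genes with allelic counts, and -0.155 to -0.123 without a replicate. The X-linked median log2 change relative to autosomal genes, -0.51, was -0.62 to -0.39 without a replicate and stayed within 1 SD of the pairs (0.161) under the other settings.

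Genes that differ from XistΔAprec (119) numbered 0 without the block, 221 with no filter on low counts, 41 without clone C11, and 1147 to 1592 without a replicate.

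Without the block all 48 named genes called in total counts lost their call, as did 15 of 43 called in the allelic ratio. Without replicate 1 the losses were 10 and 18, 1 of the 10 most silenced genes among the latter, and without replicate 2 they were 4 and 4. In total counts, direction reversed without replicate 1 or 2 for Suv39h1 (0.0709 and -0.00945), Nxf7 (0.42 and -0.36), Araf (0.0135 and -0.0226), Gm14634 (0.25 and -0.28), Timm17b (-0.63 and 0.38) and Ssr4 (-0.15 and 0.0557), values without replicate 1 first, and for Timm17b without the block (0.0544). In the allelic ratio it reversed for Suv39h1 (-0.49 and 0.75), Atp6ap1 (0.39 and -0.11), Pramel3 (0.21 and -0.38), Ftsj1 (0.0401 and -0.33) and Efhc2 (0.28 and -0.84). The cause of these changes was not tested.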

Other observations

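D130009I18Rik measured 1.58 RPM in NoDox1, 1.16 in NoDox2, 0.305 in Dox1 and 114 in Dox2, and was called higher (log2 change 4.10) with changes of -2.33 and 6.58 in the pairs. Rmrp, the RNA of RNase MRP, measured 4056, 6202, 7098 and 7638 RPM in the same order. Among autosomal genes with a changed allelic ratio, the share of the Xi genome in Snhg3 was 55.3% and 50.8% without Dox and 62.1% and 63.3% with Dox. Phb2 went from 31.1% and 28.9% to 22% and 23.8%, Iars from 44.8% and 48.5% to 38.2% and 42.0%, and Tcf7l2 from 52.2% and 52.7% to 58.3% and 59.6%. In the edgeR fit without the replicate block Iars and Tcf7l2 were not called (adjusted p 0.189 and 0.182), while Snhg3 and Phb2 were (0.00221 and 0.0422). Filip1l, whose total rose in Dox2, had shares of 9.60%, 10.3%, 5.74% and 0.892%. These genes were chosen after their values were seen.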
